A study of Mus musculus with 2 samples.

Results

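The genes described here are 10 transcription factors linked to vessel identity, read in endothelial cells of 2 mouse tumors. They are the SoxF genes Sox7, Sox17 and Sox18, the lymphatic factor Prox1, the forkhead genes Foxc1 and Foxc2, the zinc finger gene Gata2, the nuclear receptors Nr2f1 and Nr2f2 (COUP-TFI and COUP-TFII), and the homeobox gene Meox2. They were chosen by symbol, not by a measured value, and all 10 were among the 31055 features of each count matrix. One single-cell library was made from KPC tumors, grown from a mouse pancreatic cancer line, and one from PyMT tumors, grown from a mouse mammary cancer line. Both hosts were wild-type (WT) female C57BL6 mice that were 6 weeks old when 100000 tumor cells were implanted orthotopically, and the endothelial cells were sorted from the digested tumors 10 days later. No treated or tumor-free group was analysed here, so KPC and PyMT were the only groups. With 1 library per tumor model there was no replicate and no test, and the tumor model, the library and the tissue digestion, which used a different collagenase dose for each tumor, cannot be told apart.

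SoxF proteins act in blood and lymphatic endothelium, and Sox17 works with Notch signaling in arteries. Nr2f2 is required for vein identity in the embryo and holds arterial genes down, and in lymphatic endothelium it partners with Prox1, the factor that sets lymphatic fate. Foxc2 and Gata2 act in the formation of lymphatic valves, Foxc1 in vessel and lymphatic development, and Meox2 is best known in mesoderm, in muscle precursors and as a growth-restraining factor in vascular cells.

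Cells were placed in 9 classes by the summed unique molecular identifier (UMI) counts of gate genes, none of which is among the 10 factors. A cell took the first gate it met, in the order tumor (Krt8 and Krt18, 5 or more UMIs), fibroblast (Col1a1 and Col1a2, 10), lymphatic (Mmrn1 and Reln, 3), pericyte (Notch3 and Higd1b, 2), venule (Ackr1 and Selp, 3), artery (Gja5 and Sema3g, 2), tip (Apln and Angpt2, 3) and capillary (Car4 and Cd300lg, 2), and all remaining cells were called other. In KPC and in PyMT these held 643 and 360 venule, 105 and 126 artery, 1320 and 2017 tip, 1297 and 2610 capillary, 759 and 485 lymphatic, 119 and 27 pericyte, 443 and 28 fibroblast, 794 and 379 tumor and 4111 and 5712 other cells. The venule, artery, tip and capillary classes are together called the blood endothelial classes below.

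The KPC library held 9591 kept cells at a median of 3141 UMIs and the PyMT library 11744 at 3978, and 151 kept barcodes occurred in both. Class medians ran from 1879 UMIs in the KPC capillary class to 12688.5 in the KPC tumor class, so a gate at a fixed count takes deeper cells more readily. Separate marker lists bore out the lymphatic gate (20138 CPM in KPC and 15944 CPM in PyMT, CPM being a gene's UMIs over all UMIs of a class on a fixed scale) and the artery gate (6622 and 4651 CPM of artery markers, against 862 and 382 CPM in the capillary class), although Nts, a lymphatic marker, was among the leading genes of the PyMT artery class. The study's sorting protocol depleted cells with podoplanin or EpCAM on their surface, yet Pdpn, which encodes podoplanin, was at 272 and 243 CPM in the lymphatic class. The fibroblast and venule lists were also highest in their own class. Fibroblasts held 16668 and 27631 CPM of fibroblast markers. Venules held 6477 and 5481 CPM of venule markers, against 3305 and 2874 CPM in capillary cells. Capillary markers were higher in KPC capillary cells than in KPC venules (14151 against 5568 CPM). Other comparisons were less clean. PyMT capillary and venule cells held nearly the same sum of capillary markers (5246 and 5204 CPM). KPC tip cells held less of the tip list than KPC capillary cells (4162 against 5591 CPM). The pericyte class carried pan-endothelial markers (3773 CPM for KPC, 4471 CPM for PyMT). In PyMT it also held 11714 CPM of capillary markers, above the capillary class itself, against 3773 CPM of pericyte markers. In KPC these sums were 5562 and 7103 CPM. The PyMT tumor class lacked the epithelial list (60.8 CPM, against 4666 CPM in KPC). In PyMT, 52.5% of venule, 39.7% of tip and 59.3% of pericyte-gated cells also met another gate, against 22.4%, 13.9% and 24.4% in KPC. Among lymphatic cells the share was 26.8% in PyMT and 33.2% in KPC.

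Promoter sequence is shown for 3 members whose levels carry the main patterns: Prox1 for the lymphatic class, Nr2f2 for veins, and Meox2 for the gap between the libraries. RefSeq promoters of 300 bases, from 250 before to 50 after a start, were matched for 6 of the 10 genes on GRCm38.p6, and Sox7, Sox17, Sox18 and Foxc2 had no entry. Prox1 had windows at 2 starts, and the one shown, chosen for its motif match, lies at chr1:190169466-190169765 on the minus strand, with 57.3% GC. The other, at chr1:190170778-190171077 and 64.3% GC, held no match. The Nr2f2 window lies at chr7:70366697-70366996 on the minus strand, with 49.7% GC. The Meox2 window lies at chr12:37108290-37108589 on the plus strand, with 60.7% GC. Capitals mark the 1 match found among 5 motifs searched on both strands.
Prox1: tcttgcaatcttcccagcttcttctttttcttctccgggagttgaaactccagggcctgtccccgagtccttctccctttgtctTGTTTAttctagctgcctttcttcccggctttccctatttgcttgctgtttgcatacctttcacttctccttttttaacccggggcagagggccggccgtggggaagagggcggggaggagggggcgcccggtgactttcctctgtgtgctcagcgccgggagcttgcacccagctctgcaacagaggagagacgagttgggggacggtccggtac
Nr2f2: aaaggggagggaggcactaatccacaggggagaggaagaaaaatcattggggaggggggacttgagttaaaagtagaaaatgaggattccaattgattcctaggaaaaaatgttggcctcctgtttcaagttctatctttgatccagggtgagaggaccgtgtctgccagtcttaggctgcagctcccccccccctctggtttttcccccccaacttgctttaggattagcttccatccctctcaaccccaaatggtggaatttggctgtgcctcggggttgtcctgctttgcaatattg
Meox2: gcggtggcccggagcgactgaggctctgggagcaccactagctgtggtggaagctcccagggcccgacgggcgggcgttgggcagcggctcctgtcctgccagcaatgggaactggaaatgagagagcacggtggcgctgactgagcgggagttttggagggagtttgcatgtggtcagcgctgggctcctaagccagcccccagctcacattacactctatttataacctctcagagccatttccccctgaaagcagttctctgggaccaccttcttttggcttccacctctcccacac
Of 32851 promoters of this length, the SOX letters ACAATG occur in 12.6% and the GATA letters AGATAA in 11.2%. The ETS letters GGAAGT occur in 23.8%, the nuclear receptor half-site AGGTCA in 16.3% and the FOX letters TGTTTA in 13.4%. No motif holds another on either strand. Within the 6 matched genes the FOX letters were found at position 85 of this Prox1 window, counted from its 5′ end, and at position 103 of the Nr2f1 window at chr13:78196400-78196699, minus strand. A match is of letters alone and says nothing of binding.

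**Figure D1:**
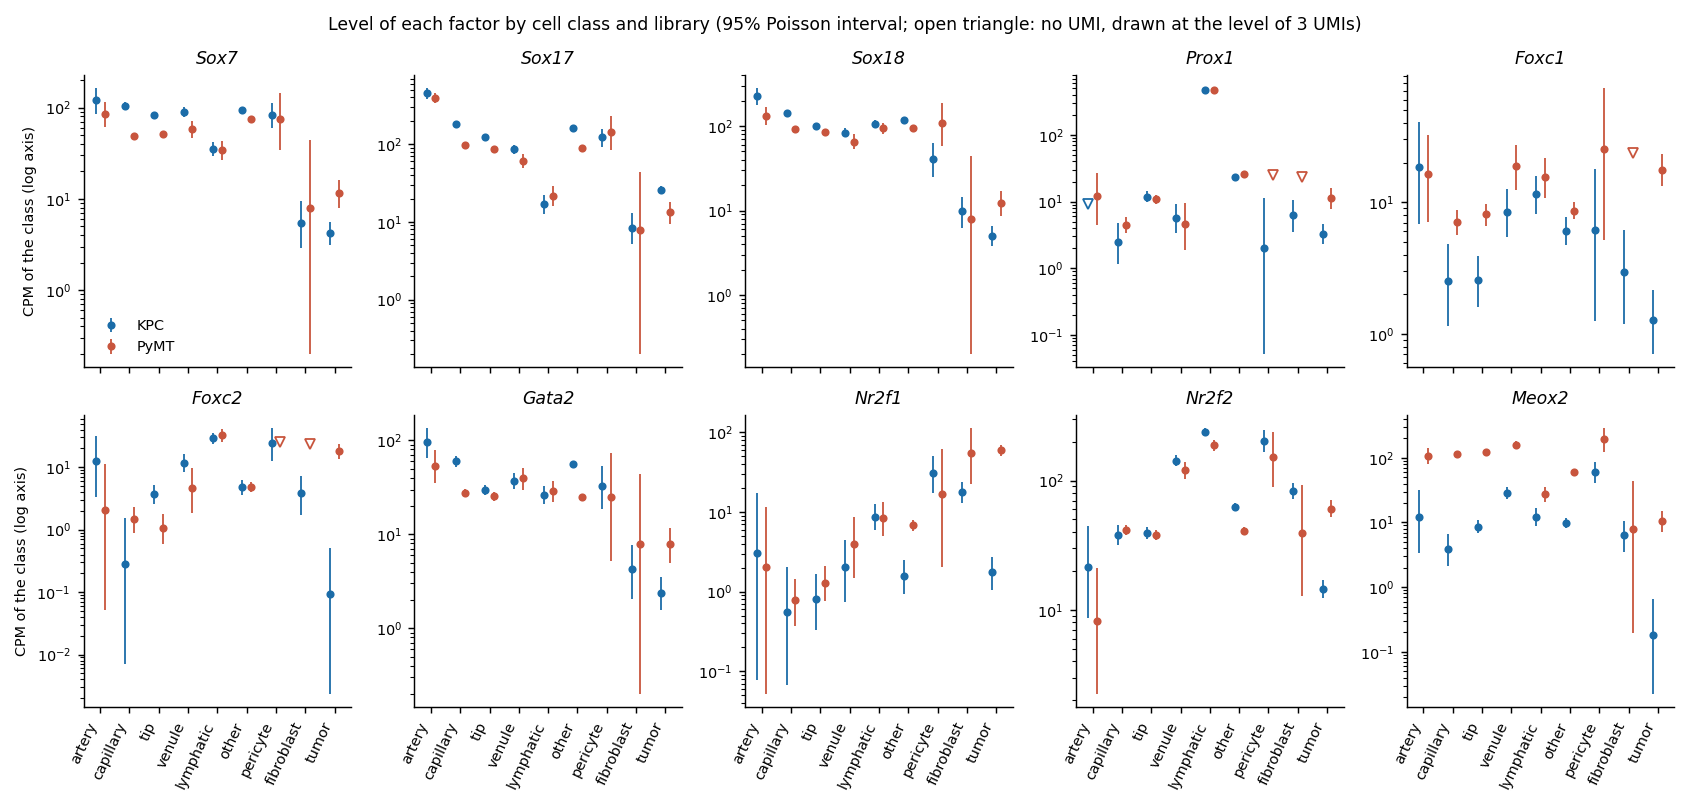
Level of each of the 10 factors (CPM of summed UMIs, 1 panel per gene, each with its own log axis) in the 9 cell classes of the KPC and PyMT libraries. Bars on the points are exact 95% Poisson intervals for counting error, and open triangles mark classes with no UMI, drawn at the level of 3 UMIs. Sox17 stands highest in the artery class in both libraries, Prox1 in the lymphatic class, and Meox2 lies far higher in PyMT than in KPC in all 4 blood endothelial classes.

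Among the SoxF genes, Sox17 (ENSMUSG00000025902, chr1:4490931-4497354, minus strand, GRCm38) had the sharpest arterial pattern. Its level in the artery class was 451 CPM in KPC (95% Poisson interval 381 to 531, 146 UMIs) and 392 CPM in PyMT (338 to 451, 191 UMIs). In the capillary class it was 180 and 98.7 CPM, in the tip class 123 and 85.5 CPM, and in the venule class 86.0 and 61.3 CPM. The artery interval overlapped that of no other class in either library. The artery level was 2.50-fold the capillary level in KPC (log2 ratio 1.32, 95% interval 1.05 to 1.58) and 3.97-fold in PyMT (1.99, 1.76 to 2.21). Against venules, arteries held 5.25-fold more Sox17 in KPC and 6.39-fold more in PyMT. All intervals given here cover counting error only, since cells of 1 library are not independent replicates.

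The order below the artery class differed between the libraries in its middle. In KPC, Sox17 ran capillary, other (162 CPM), tip, pericyte (122 CPM), venule, tumor (25.9 CPM), lymphatic (16.9 CPM) and fibroblast (8.47 CPM). In PyMT it ran pericyte (143 CPM), capillary, other (89.5 CPM), tip, venule, lymphatic (21.6 CPM), tumor (13.2 CPM) and fibroblast (7.85 CPM). Neighbors overlapped in their intervals for capillary and other, tip and pericyte, pericyte and venule, and lymphatic and fibroblast in KPC. In PyMT they overlapped from pericyte through capillary and other to tip, and from lymphatic through tumor to fibroblast. Tip and venule intervals were apart in both libraries, although in KPC the pericyte interval overlapped each of them. Venule and lymphatic cells also stood apart in both.

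After each cell was thinned to 2000 UMIs, 56.7% of 67 KPC artery cells (exact binomial interval 44.0 to 68.8) and 49.5% of 107 PyMT artery cells (39.7 to 59.4) held a Sox17 UMI. The unthinned shares were 62.9% and 61.1%. At that depth the share was 26.3% and 17.0% in capillary cells, 13.4% and 11.6% in venule cells, and 3.12% and 2.12% in lymphatic cells. KPC fibroblasts, which should lack the gene, gave 1.47% of 408 cells. Artery cells were shallow in KPC (median 2485 UMIs, fibroblasts 4912), so the thinned share leaves out cells with fewer UMIs.

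Sox17 followed the arterial gate count itself. In KPC cells of the blood endothelial and other classes it was 139 CPM with no Gja5 or Sema3g UMI, 278 CPM with 1, 456 CPM with 2 and 482 CPM with 3 to 5. In PyMT the same bins gave 88.9, 125, 377 and 353 CPM. Cells with 1 arterial UMI, which the gate does not take, thus already stood above cells with none, with intervals that did not overlap (242 to 318 against 135 to 144 CPM in KPC, 107 to 145 against 86.3 to 91.7 CPM in PyMT).

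Sox18 (ENSMUSG00000046470, chr2:181669836-181671640, minus strand), a SoxF gene known for lymphatic development, was also highest in arteries but was not low in lymphatic cells. It measured 226 CPM (177 to 284) in KPC artery and 133 CPM (103 to 170) in PyMT artery cells, and 144 and 92.9 CPM in capillary cells. Its lymphatic level was 106 CPM in KPC and 94.0 CPM in PyMT, and the log2 ratio of lymphatic to summed blood endothelial cells was −0.05 (−0.22 to 0.12) and 0.09 (−0.12 to 0.30). Venules held less than arteries, with log2 ratios of −1.43 (−1.81 to −1.04) in KPC and −1.03 (−1.50 to −0.55) in PyMT. The other class held 117 and 94.7 CPM and tip cells 101 and 84.6 CPM. Intervals of the other class and of lymphatic cells overlapped in both libraries, as did those of lymphatic and tip cells. Venules held 83.6 and 65.3 CPM, pericyte-gated cells 40.7 and 109 CPM, fibroblasts 9.74 and 7.85 CPM and tumor cells 5.06 and 12.2 CPM. The PyMT interval of venule over artery spans the 2-fold line, and the ratio was −0.86 with cells that met several gates left out, −0.87 with the other gate order, −0.90 with the stricter filter and −0.98 without mitochondrial and ribosomal genes.

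Sox7 (ENSMUSG00000063060, chr14:63943673-63950732, plus strand), the remaining SoxF gene, was the flattest of the 3 across blood vessels. It was 121 CPM in KPC artery cells (85.7 to 165), 105 in capillary, 90.4 in venule and 83.5 in tip cells, and neighbors in this order overlapped. In PyMT it was 86.1 CPM in artery cells (62.1 to 116), 58.0 in venule, 51.4 in tip and 49.3 in capillary cells, and arteries stood apart from tip and from capillary cells (log2 ratio to capillary 0.80, 0.32 to 1.26). The other class held 94.7 and 74.6 CPM, pericyte-gated cells 83.4 and 75.6 CPM, fibroblasts 5.50 and 7.85 CPM and tumor cells 4.23 and 11.5 CPM. Lymphatic cells, below every blood class in both libraries, held 35.3 CPM in KPC and 34.3 CPM in PyMT, a log2 ratio to blood endothelial cells of −1.36 (−1.64 to −1.09) and −0.58 (−0.94 to −0.24).

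The SoxF genes therefore differed most in lymphatic cells, where Sox17 was 8.06-fold below the blood endothelial level in KPC and 4.42-fold below it in PyMT. The lower Sox17 level followed the lymphatic gate count. It measured 151 CPM in KPC cells without a Mmrn1 or Reln UMI, 73.7 CPM with 1, 21 CPM with 3 to 5 and 14.8 CPM with over 10. In PyMT these bins gave 95.2, 51.8, 28.4 and 9.31 CPM, the last from 2 UMIs in 32 cells.

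All 3 SoxF genes were lower in cycling than in non-cycling blood endothelial cells (2 or more against 0 UMIs of Mki67 and Top2a, a split chosen after the class levels were seen). For Sox17 the levels were 90.8 CPM (81.9 to 100) against 157 CPM (149 to 164) in KPC, and 72.5 CPM (66.8 to 78.6) against 110 CPM (105 to 115) in PyMT. Sox7 gave 72.3 against 97.8 CPM and 43.7 against 56.0 CPM, and Sox18 gave 91.0 against 119 CPM and 77.9 against 95.2 CPM. Meox2 did not share the direction in PyMT (128 CPM in cycling against 118 CPM in non-cycling cells) and Nr2f2 differed little there (42.1 against 44.4 CPM). The share of each class in the 2 sets was not held fixed, and its part in these differences was not tested.

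Whether SoxF genes occur in the same cells was read from shared detection at 2000 UMIs. Of KPC artery cells with a Sox17 UMI, 42.1% (26.3 to 59.2) also held a Sox18 UMI, against 37.9% (20.7 to 57.7) of those without. In PyMT artery cells these shares were 18.9% (9.44 to 32.0) and 22.2% (12 to 35.6). At this depth the intervals with and without the first gene overlapped in all 34 combinations of fixed pair, class and library. Overlap of intervals is not a test, so it does not show that an association was absent. Some combinations had only 1 or 2 cells with the first gene, where the intervals could hardly fail to overlap.

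In artery over capillary cells, 1 of the 5 testable factors passed 2-fold in the same direction in both libraries. This was Sox17, higher in arteries, while 2.76% of the 9252 genes with at least 20 UMIs over both sides were higher by this rule. None of the 5 was lower, against 2.19% of all genes. A fixed list of SoxF and arterial program genes moved the same way, with 13 of 18 measured genes higher and 0 lower, and a median log2 ratio of 1.98 against −0.05 for all genes. The list was written with earlier results of these data known. It held Bmx, a kinase of large arteries (151 against 1.96 CPM in KPC, 59.5 against 0.784 CPM in PyMT), the Notch ligand gene Jag1 (192 against 16.2 and 207 against 22.5 CPM) and the Notch target Hey1 (325 against 83.3 and 363 against 60.0 CPM). The list of other Sox family genes had 3 testable members, and 0 passed.

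Venules against arteries gave 3 of 7 testable factors past 2-fold in both libraries. Nr2f2 was higher, and Sox17 and Sox18 were lower, while 3.39% and 3.2% of 7688 genes were higher and lower by this rule. The arterial list had 14 of 18 genes lower, with a median log2 ratio of −2.61, and the venous list had 9 of 16 higher and 1 lower, with a median of 1.27, against 0.03 over all genes.

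**Figure D2:**
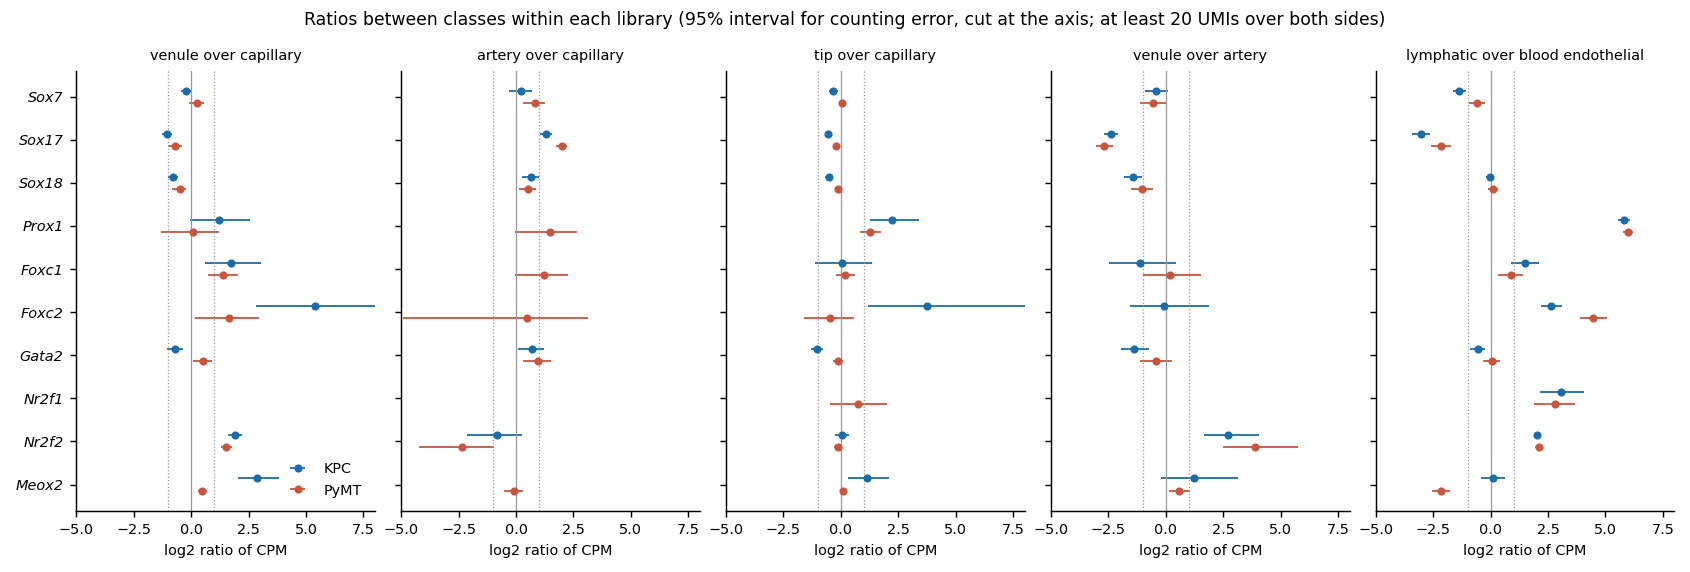
Log2 ratio of each factor between classes (venule, artery and tip over capillary, venule over artery, and lymphatic over the summed blood endothelial classes), with 1 point per library and exact 95% intervals for counting error, where both sides together hold at least 20 UMIs. Dotted lines mark 2-fold. Nr2f2 lies above 1 for venule over artery at 2.72 in KPC and 3.87 in PyMT, and Sox17 lies below −1 at −2.39 and −2.68.

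Nr2f2 (ENSMUSG00000030551, chr7:70351944-70366735, minus strand), the factor that drives vein identity, measured 143 CPM in KPC venules (129 to 157, 421 UMIs) and 120 CPM in PyMT venules (103 to 139, 180 UMIs). Capillary cells held 38.0 and 41.4 CPM, tip cells 39.1 and 38.0 CPM, and artery cells 21.6 CPM (8.70 to 44.6, 7 UMIs) and 8.20 CPM (2.23 to 21, 4 UMIs). Venules stood apart from the other 3 blood classes in both libraries. Capillary and tip cells could not be separated in either, and arteries were separated from both in PyMT alone. The venule level was 3.75-fold the capillary level in KPC (log2 ratio 1.91, 1.62 to 2.20) and 2.90-fold in PyMT (1.54, 1.28 to 1.78). Over arteries it was 6.59-fold higher in KPC (2.72, 1.66 to 4.04) and 14.6-fold higher in PyMT (3.87, 2.49 to 5.76), the 15th largest mean ratio of 7688 genes.

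Venules were not the class with the most Nr2f2. Lymphatic cells held 238 CPM in KPC (222 to 255) and 188 CPM in PyMT (170 to 207), and pericyte-gated cells 204 CPM (166 to 248) and 151 CPM (89.6 to 239). Lymphatic and pericyte intervals overlapped in both libraries, and pericyte and venule intervals overlapped in PyMT. KPC fibroblasts held 83.4 CPM, above the other class at 62.5 CPM, and PyMT fibroblasts 39.3 CPM from 5 UMIs. The tumor classes held 14.6 and 60.8 CPM. Nr2f2 UMIs were thus found in each class, outside the endothelial gates too.

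At 2000 UMIs, 26.5% of KPC venule cells (22.8 to 30.4) and 26.3% of PyMT venule cells (21.3 to 31.8) held a Nr2f2 UMI. The shares were 7.37% and 7.28% in capillary cells, 1.49% and 1.87% in artery cells and 36.3% and 30.5% in lymphatic cells. KPC fibroblasts gave 16.4%. The artery shares were the lowest of the blood endothelial classes. They rested on 1 of 67 KPC cells (0.04 to 8.04%) and 2 of 107 PyMT cells (0.23 to 6.59%). Median depths before thinning were 2485 and 3439 UMIs in arteries against 3853 and 3486 in venules.

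The summed level of Nr2f2 was higher in cells with more venule gate UMIs, also below the gate, though it did not rise at every step. Summed levels do not show how single cells within a bin differ. From 0 through 1, 2, 3 to 5, 6 to 10 and over 10 UMIs of Ackr1 and Selp, KPC cells gave 43.1, 71.7, 121, 104, 159 and 221 CPM. PyMT cells gave 36.6, 68.1, 89.0, 112, 133 and 130 CPM. In KPC the top bin (186 to 262 CPM, 146 cells) lay above the bin of 3 to 5 UMIs (88.8 to 121 CPM, 315 cells), and in PyMT these bins overlapped (85.4 to 189 CPM from 42 cells against 90.9 to 136 CPM from 218 cells). The median depth of the bins ran from 2359.5 UMIs with no gate UMI to 4210 in KPC, and its part in the gradient was not tested.

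**Figure D3:**
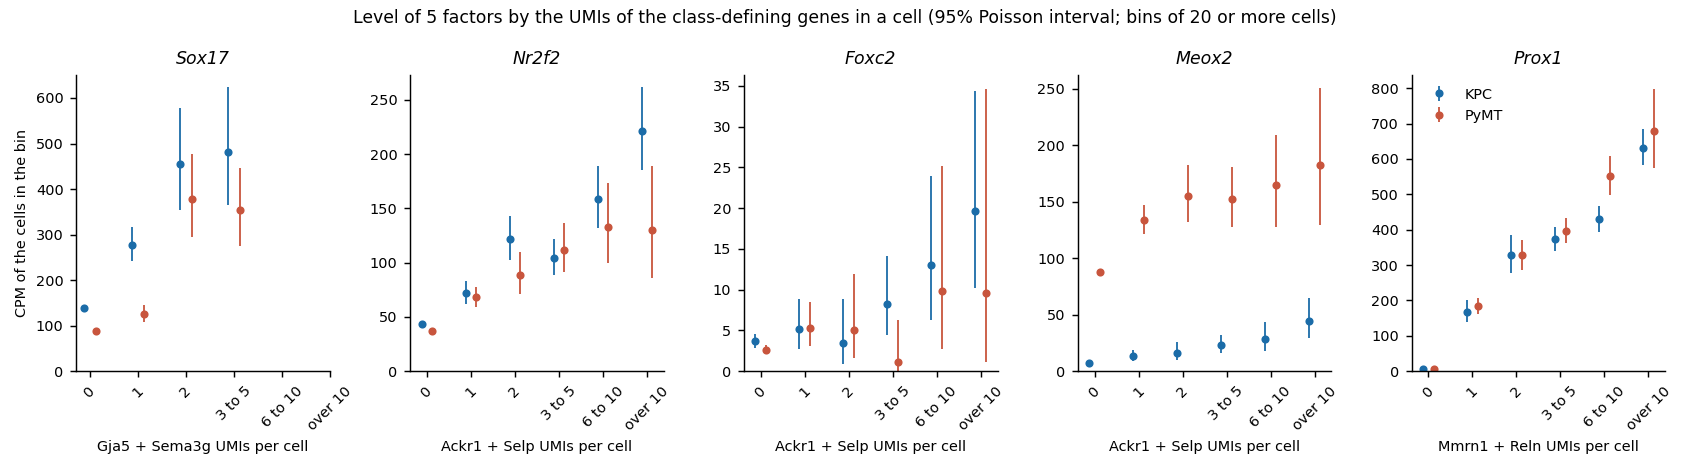
Level of Sox17, Nr2f2, Foxc2, Meox2 and Prox1 (CPM of summed UMIs, with exact 95% Poisson intervals) in cells binned by the UMI sum of a gate's genes, for KPC and PyMT, bins of at least 20 cells. Nr2f2 reaches 221 CPM in KPC cells with over 10 Ackr1 and Selp UMIs, and Prox1 reaches 632 CPM in KPC cells with over 10 Mmrn1 and Reln UMIs.

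In venule over capillary, 3 of 9 testable factors were higher past 2-fold in both libraries (Foxc1, Foxc2 and Nr2f2) and 0 were lower, against 1.62% higher and 1.18% lower of 10080 genes. The venous program list had 8 of 16 genes higher and 1 lower, with a median log2 ratio of 1.5 against 0.00 for all genes. Among these were the leukocyte adhesion genes Sele (56.9 against 4.75 CPM in KPC, 56.0 against 2.51 CPM in PyMT), Vcam1 (192 against 8.95 and 115 against 34.0 CPM) and Icam1 (231 against 90.3 and 137 against 34.7 CPM), and the 1 lower gene was Flt4, a receptor of lymphatic growth factor. Of 23 other endothelial transcription factors, 0 were higher and 1, Tcf15, was lower.

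The forkhead calls in venules rested on few UMIs. Foxc1 (ENSMUSG00000050295, chr13:31806633-31812476, plus strand) was 8.46 CPM in KPC venules (25 UMIs) and 18.7 CPM in PyMT venules (28 UMIs), against 2.52 and 7.05 CPM in capillary cells, with log2 ratios of 1.75 (0.60 to 3.03) and 1.40 (0.74 to 2.03). Foxc2 (ENSMUSG00000046714, chr8:121116171-121118895, plus strand) was 11.8 CPM in KPC venules (35 UMIs) against 0.280 CPM in capillary cells (1 UMI), a log2 ratio of 5.41 with an interval of 2.83 to 10.75. In PyMT it was 4.67 CPM from 7 UMIs against 1.49 CPM from 19 UMIs (1.65, 0.15 to 2.96). In the remaining classes Foxc1 ran from 18.5 CPM in KPC arteries (6 UMIs) down to 1.29 CPM in KPC tumor cells, and from 25.2 CPM in PyMT pericyte-gated cells (3 UMIs) to 0 UMIs in PyMT fibroblasts. In KPC no neighbors in its order were separated, and in PyMT lymphatic cells (15.5 CPM, 10.7 to 21.8) lay above the other class (8.63 CPM, 7.43 to 9.96). Both forkhead calls were lost when genes needed 50 UMIs and when gates were set on thinned cells, while that of Nr2f2 held in both. Gm20388, which overlaps Foxc2 on the same strand, had 0 UMIs.

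Prox1 (ENSMUSG00000010175, chr1:190118035-190170714, minus strand) marked the lymphatic class most sharply. It measured 467 CPM in KPC (444 to 491, 1548 UMIs) and 477 CPM in PyMT (448 to 508, 1015 UMIs). No blood endothelial class exceeded 12.3 CPM, and KPC artery cells held 0 UMIs, which allows up to 9.27 CPM at a floor of 3 UMIs. The other class came next at 23.3 and 26.3 CPM. Venules held 5.76 and 4.67 CPM, fibroblasts 6.35 CPM and 0 UMIs, pericyte-gated cells 2.04 CPM (1 UMI) and 0 UMIs, and tumor cells 3.31 and 11.2 CPM. The PyMT tumor level came from 33 UMIs in 4 cells. The ratio of lymphatic to blood endothelial cells was 56.2-fold in KPC (log2 5.81, 5.55 to 6.08) and 62.8-fold in PyMT (5.97, 5.76 to 6.19). Prox1os, on the opposite strand, was at 5.13 and 5.64 CPM in the lymphatic class.

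At 2000 UMIs, 56.6% of KPC lymphatic cells (52.4 to 60.7) and 55.7% of PyMT lymphatic cells (50.5 to 60.8) held a Prox1 UMI, against 1.31% and 0.702% of venule cells and 0.49% of KPC fibroblasts. Unthinned, 69.8% and 68.7% of lymphatic cells did. The level followed the gate count, from 4.99 CPM with no Mmrn1 or Reln UMI through 167 CPM with 1, 372 CPM with 3 to 5 and 632 CPM with over 10 in KPC, and from 5.84 through 183, 396 and 679 CPM in PyMT.

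The lymphatic gate did not take all Prox1-bearing cells. It held 77.7% of the Prox1 UMIs in KPC and 55.5% in PyMT, and the other class held 13.3% and 31.1%. In the other class, 61 KPC and 138 PyMT cells had 2 or more Prox1 UMIs. These had Lyve1, a lymphatic hyaluronan receptor, at 820 and 586 CPM, against 33.2 and 21.7 CPM in cells without Prox1, Nr2f2 at 171 and 151 CPM against 57.8 and 35.3 CPM, and Pecam1 at 455 and 415 CPM against 970 and 681 CPM. The split on Prox1 was chosen after its levels were seen.

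Of the 10 factors, 4 were higher in lymphatic than in blood endothelial cells past 2-fold in both libraries (Prox1, Foxc2, Nr2f1 and Nr2f2) and 1 was lower (Sox17), against 6.59% higher and 4.95% lower of 11441 genes. Nr2f2 was 4.08-fold higher in KPC (log2 2.03, 1.89 to 2.17) and 4.33-fold in PyMT (2.11, 1.95 to 2.28). The lymphatic program list had 15 of 16 genes higher and 0 lower, with a median log2 ratio of 4.27 against 0.06 for all genes. Of 23 other endothelial transcription factors, 2 were higher and 4 lower.

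Foxc2, which acts in collecting vessels and valves, was 29.2 CPM in KPC lymphatic cells (97 UMIs) and 32.4 CPM in PyMT lymphatic cells (69 UMIs), 6.26-fold and 22.1-fold the blood endothelial level. In KPC it was 11.8 CPM in venules, 12.4 CPM in arteries (4 UMIs) and 0.280 CPM in capillary cells (1 UMI), and in PyMT these were 4.67 CPM (7 UMIs), 2.05 CPM (1 UMI) and 1.49 CPM (19 UMIs). The other class held 4.74 and 4.82 CPM and tip cells 3.74 and 1.07 CPM. Pericyte-gated cells held 24.4 CPM in KPC and 0 UMIs in PyMT, and fibroblasts 3.81 CPM and 0 UMIs. The lymphatic valve list had 4 of 10 genes higher (Cldn11, Fn1, Nfatc1 and Itga9) and 1 lower (Lama5), with a median log2 ratio of 1.40.

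Lymphatic cells that held a Foxc2 UMI (82 in KPC, 59 in PyMT) had higher levels of the tight junction gene Cldn11 than those without (677 and 426 cells). The levels were 39.3 CPM (23.3 to 62.1) against 3.5 CPM (1.68 to 6.43) in KPC, and 124 CPM (85.9 to 173) against 13 CPM (8.30 to 19.3) in PyMT. Gja4, the gap junction gene Cx37, was 247 against 120 CPM and 496 against 124 CPM. Prox1 was 600 against 445 CPM and 744 against 438 CPM, and Gata2 43.7 against 23.8 CPM and 54.7 against 24.8 CPM, while Itga9 was 45.8 against 42.7 CPM in KPC and 25.5 against 44.8 CPM in PyMT. This split was made after the levels were seen. Other genes of the lymphatic valve list were counted in the same split and are not given here, so the genes named do not speak for the list. Cells with a UMI of any gene tend to be deeper, and the part of depth in these levels was not tested. Among the genes of this split, Foxc2 was paired at 2000 UMIs with Prox1 alone. The share of KPC cells with Foxc2 was 5.21% (3.07 to 8.22) with Prox1 and 5.20% (2.80 to 8.73) without. In PyMT these shares were 6.67% (3.69 to 10.9) and 5.39% (2.49 to 9.98).

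Gata2 (ENSMUSG00000015053, chr6:88193891-88207032, plus strand), a zinc finger factor of blood progenitors and endothelium, was highest in arteries in both libraries, at 95.8 CPM in KPC (65.1 to 136) and 53.3 CPM in PyMT (34.8 to 78.1). Capillary cells held 60.1 CPM in KPC and 27.6 CPM in PyMT, and venules 37.2 and 39.3 CPM. Neighbors in the order overlapped, except the KPC other class (56.0 CPM) over venules and KPC lymphatic cells over fibroblasts (4.23 CPM). Tip cells held 29.4 and 25.5 CPM, and tumor cells 2.39 and 7.81 CPM. Venule over capillary gave a log2 ratio of −0.69 (−1.04 to −0.35) in KPC and 0.51 (0.09 to 0.91) in PyMT, opposite in sign. In lymphatic cells Gata2 was 26.5 and 28.7 CPM, with log2 ratios to blood endothelial cells of −0.57 (−0.91 to −0.25) and 0.05 (−0.35 to 0.43).

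Prox1 was the 1 factor of 9 testable that passed 2-fold in both libraries in tip over capillary cells, where 0.391% of 10748 genes were higher and 0.837% lower, and 0 factors were lower. It was 11.9 CPM in KPC tip cells (102 UMIs) against 2.52 CPM in capillary cells (9 UMIs), and 10.8 CPM in PyMT (142 UMIs) against 4.47 CPM (57 UMIs), with log2 ratios of 2.24 (1.26 to 3.41) and 1.27 (0.82 to 1.74). The tip UMIs lay in 40 of 1320 KPC and 62 of 2017 PyMT cells, so the level does not describe most tip cells. Intervals that take UMIs as independent are too narrow for such counts. The lymphatic marker Lyve1 moved with Prox1, at 33.4 against 5.87 CPM in KPC and 24.7 against 6.43 CPM in PyMT. Thy1 and Pard6g did too, so 3 of 15 lymphatic program genes were higher. With every blood and other cell that held a Mmrn1, Reln or Lyve1 UMI left out, a step added after the levels were seen, the Prox1 ratio was −0.03 in KPC and 0.39 in PyMT.

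Nr2f1 (ENSMUSG00000069171, chr13:78188973-78199757, minus strand), the close relative of Nr2f2, was nearly absent from the gated blood endothelial classes. Over these 4 classes it was 1.04 CPM in KPC and 1.22 CPM in PyMT. None of them held more than 17 of its UMIs. In the other class it was 1.58 CPM in KPC (18 UMIs) and 6.77 CPM in PyMT (146 UMIs). It was 8.74 CPM in KPC lymphatic cells (29 UMIs) and 8.46 CPM in PyMT lymphatic cells (18 UMIs), with log2 ratios of 3.07 (2.15 to 4.05) and 2.80 (1.88 to 3.66), and this call was lost at 2000 UMIs and with a minimum of 50 UMIs. Its higher levels lay outside the endothelial gates, at 17.8 and 55 CPM in fibroblasts (42 and 7 UMIs) and 30.5 and 16.8 CPM in pericyte-gated cells (15 and 2 UMIs).

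In pericyte-gated against blood endothelial cells, 2 of the 10 factors were higher past 2-fold in both libraries (Nr2f1 and Nr2f2) and 0 were lower, against 4.33% and 0.88% of 11142 genes. The Nr2f1 call rested on 2 PyMT UMIs and was lost with gate thresholds times 2, at 2000 UMIs, with a minimum of 50 UMIs and without cells holding Pecam1 or Cdh5 UMIs. Nr2f2 had a log2 ratio of 1.80 (1.49 to 2.10) in KPC and 1.80 (1.04 to 2.47) in PyMT. The class carried pan-endothelial markers, so it was split by Pecam1 and Cdh5. In PyMT it held more of the capillary than of the pericyte list, so its PyMT levels may not be those of pericytes. Whether these markers came from endothelial cells taken by the gate was not tested. The 45 KPC and 4 PyMT cells without a UMI of either gave Nr2f2 at 322 and 348 CPM (37 and 3 UMIs), Meox2 at 104 and 232 CPM (12 and 2 UMIs), and 0 UMIs of Sox7 and of Sox17. The 74 and 23 cells with such a UMI gave Sox17 at 159 and 154 CPM.

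Some of the factors were also read in the tumor class. In KPC tumor cells, Sox17 stood at 19.1% of its blood endothelial level, whereas Sox7, Sox18, Pecam1 and Cdh5 stood at 4.67%, 4.6%, 4.4% and 5.06%. Its median depth was 12688.5 UMIs, the deepest of any class. In the 483 KPC tumor cells without Pecam1 or Cdh5 UMIs, Sox17 was 21.4 CPM (17.9 to 25.4) and Sox18 was 0.811 CPM. The PyMT tumor class differed, with Nr2f1 at 59.4 CPM (175 UMIs), Foxc2 at 18 CPM and Nr2f2 at 60.8 CPM, while Sox17 stood at 13.8% of its blood level, as Pecam1 did. In PyMT tumor cells without Pecam1 or Cdh5 UMIs, Nr2f1 was 75.5 CPM against 45 CPM with them, and Foxc2 was 15.8 against 19.9 CPM. Since this class lacked the epithelial list, the kind of cell it holds is not settled by its gate. A830082K12Rik, antisense to Nr2f1, was at 15.6 CPM there.

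Meox2 (ENSMUSG00000036144, chr12:37108540-37179534, plus strand) had the largest ratio of the 10 factors between the libraries in each of the 4 blood endothelial classes. In KPC it was 28.8 CPM in venules (23.0 to 35.6, 85 UMIs), 12.4 CPM in arteries (4 UMIs), 8.64 CPM in tip cells (74 UMIs) and 3.91 CPM in capillary cells (2.14 to 6.57, 14 UMIs). In PyMT the same classes held 160 CPM (140 to 182, 240 UMIs), 107 CPM (79.6 to 140, 52 UMIs), 123 CPM (117 to 129, 1610 UMIs) and 114 CPM (108 to 120, 1452 UMIs). No PyMT interval overlapped its KPC counterpart. The PyMT level was 5.56-fold higher in venules (log2 2.47, 2.11 to 2.85), 8.62-fold in arteries (3.11, 1.67 to 5.04), 14.2-fold in tip cells (3.83, 3.49 to 4.18) and 29.1-fold in capillary cells (4.86, 4.11 to 5.74). The capillary gate took cells of unlike make-up in KPC and PyMT. Car4 was found in 64.8% of KPC and 95.3% of PyMT capillary cells, and Cd300lg in 82.3% and 34.3%. Capillary markers summed to 14151 and 5246 CPM. The part of this in the capillary ratio was not tested. In lymphatic cells Meox2 was 12.4 CPM in KPC and 27.3 CPM in PyMT, 2.21-fold (1.14, 0.54 to 1.76).

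**Figure D4:**
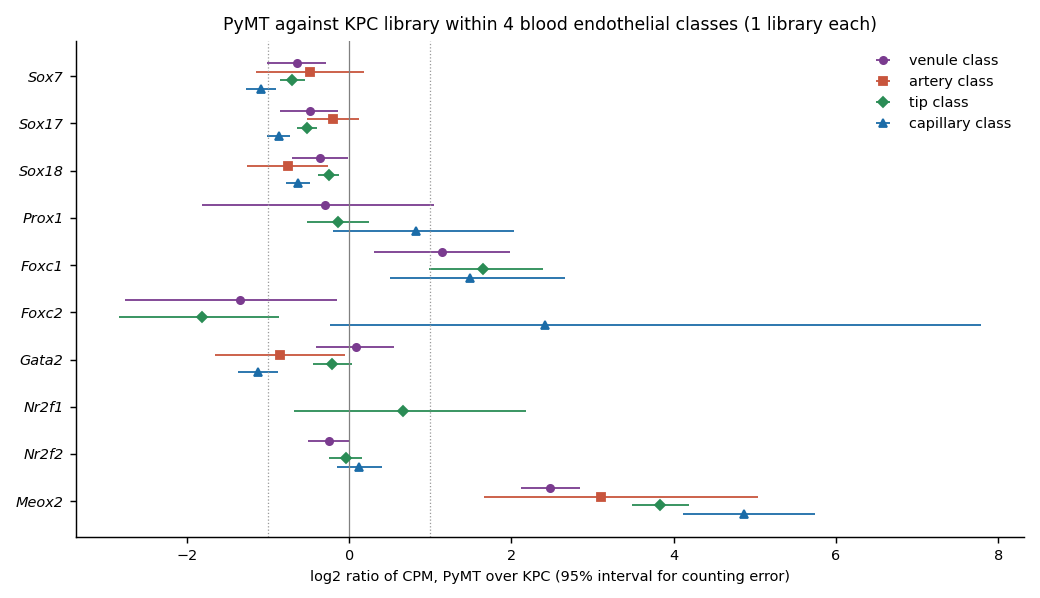
Log2 ratio of the PyMT over the KPC level for each factor in the venule, artery, tip and capillary classes, with exact 95% intervals for counting error (1 library per tumor model), where both sides together hold at least 20 UMIs. Meox2 lies above 1 in all 4, at 4.86 in capillary cells, while Sox7, Sox17 and Sox18 lie below 0 in the 4 blood endothelial classes.

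Of 5 factors testable in all 4 blood endothelial classes, Meox2 was the 1 that passed 2-fold in every class. This direction held for 0.271% of 5157 genes, among which Meox2 ranked 4th by mean ratio, and 0.562% were lower in every class, with 0 of the factors. Across all these genes the median of the mean log2 ratio was −0.07. Detection moved with the level. At 2000 UMIs, 1.17% of KPC capillary cells (0.473 to 2.40) and 18.8% of PyMT capillary cells (17.2 to 20.4) held a Meox2 UMI, and in tip cells 1.68% and 21.9% did. Unthinned shares in capillary cells were 0.925% and 36.9%, at median depths of 1879 and 4252.5 UMIs, and the tumor classes gave 0% and 2.12% after thinning.

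The class order of Meox2 differed between the libraries as well. In KPC, venules stood above capillary cells by a log2 ratio of 2.88 (2.05 to 3.81), and in PyMT by 0.49 (0.29 to 0.69). With the capillary gate count, Meox2 ran from 69.0 CPM with no Car4 or Cd300lg UMI up to 154 CPM with over 10 in PyMT, and from 13.5 CPM down to 4.55 CPM with 3 to 5 in KPC. With the venule gate count it went up in both, from 7.53 to 44.3 CPM in KPC and from 87.7 to 182 CPM in PyMT. The pericyte class was the highest in both libraries, at 61.1 CPM (41.2 to 87.2) and 193 CPM (123 to 290), overlapping the venule interval in PyMT and lying above it in KPC. In PyMT, tip cells lay above capillary cells by a log2 ratio of 0.11 (0.00 to 0.21), and the other class held 60.4 CPM. Tumor cells held 0.184 and 10.5 CPM and fibroblasts 6.35 and 7.85 CPM.

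Its paralog Meox1 did not show the gap. Over the blood endothelial classes Meox1 was 235.7 CPM in KPC and 169.8 CPM in PyMT, and in capillary cells 246 and 162 CPM. It was low in arteries (55.6 and 71.8 CPM) and was the 1 of 6 testable relatives of the factors that was lower there than in capillary cells in both libraries. Among the other relatives, Foxf1, a forkhead gene of mesenchyme and lung vessels, had the opposite gap to Meox2, at 38.0 CPM in KPC and 1.18 CPM in PyMT blood endothelial cells.

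The remaining factors differed less between the libraries than Meox2 in each of the 4 blood endothelial classes. This did not hold for every class. In the tumor class, Foxc2 had a log2 ratio of PyMT over KPC of 7.61 (53 and 1 UMIs). Meox2 had 5.84 there (31 and 2 UMIs) and Nr2f1 had 5.09 (175 and 19 UMIs). The KPC counts of Foxc2 and Meox2 lay below the floor of 3 UMIs. The epithelial list stood at 4666 CPM in the KPC and 60.8 CPM in the PyMT tumor class, so these ratios do not compare like cells. In PyMT against KPC, log2 ratios for venule, artery, tip and capillary cells were −0.64, −0.49, −0.70 and −1.09 for Sox7, −0.49, −0.20, −0.52 and −0.87 for Sox17, and −0.36, −0.76, −0.25 and −0.63 for Sox18. None of the 3 SoxF genes passed 2-fold in every class. In arteries the intervals of Sox7 (−1.15 to 0.18) and Sox17 (−0.52 to 0.12) included 0. Nr2f2 was −0.25 in venules, −0.04 in tip, 0.12 in capillary and −0.34 in lymphatic cells, and −1.40 in arteries from 4 and 7 UMIs. Prox1 was 0.03 in lymphatic cells. Foxc2, on few UMIs, was −1.34 in venules, −1.81 in tip and 2.41 in capillary cells. Foxc1 was higher in PyMT in 3 of these 4 blood classes (1.14 in venule, 1.65 in tip and 1.49 in capillary cells, with intervals above 0) and −0.18 (−1.89 to 1.63) in arteries. Gata2 was 0.08 (−0.40 to 0.55) in venules, −0.85 (−1.66 to −0.05) in arteries, −0.21 (−0.45 to 0.03) in tip cells and −1.12 (−1.37 to −0.87) in capillary cells. All capillary ratios compare classes of unlike make-up, as given above for Meox2.

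Genes with class profiles most like those of the factors were sought over the 16 class and library points of 50 or more cells, by Pearson's r of log2(CPM + 1) among 11243 genes. These points share libraries, depth and gates and include non-endothelial classes, so the values describe and do not test. Sox7 was closest to Adgrf5 (r = 0.977), Mmrn2 (0.970) and Gpr4 (0.969), Sox18 to Hspa12b (0.991), Tie1 (0.982) and Limch1 (0.978), and Gata2 to Notch1 (0.974), Adgrf5 (0.973) and Mmrn2 (0.972). Sox17 was closest to Stk10 (0.968), Rflnb (0.965) and Apbb2 (0.947), and Prox1 to Scn3a (0.969), Sema3d (0.953) and Il7 (0.949), and those near Nr2f2 included Olfm1 (0.878) and 1500009L16Rik (0.874). Meox2 was closest to Glrx2 (0.941), Gm47283 (0.871) and mt-Nd4l (0.845), and Foxc2 to B9d2 (0.908), Arhgdib (0.840) and Ptms (0.831). Nr2f1 was closest to Sdc2 (0.902), Angptl2 (0.891) and Wls (0.887), and Foxc1 to Plec (0.863), Dst (0.821) and Nsa2 (0.781).

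Among the factors themselves, Sox7 and Gata2 had the most similar profiles (r = 0.956), followed by Sox18 and Gata2 (0.946) and Sox7 and Sox18 (0.912). Nr2f2 was closest to Foxc2 (0.710) and had r of −0.484 with Sox17. Meox2 reached at most 0.613, with Foxc1. The r values between factors were not computed over endothelial classes alone.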

How the data were processed

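Tumor endothelial cells were sorted and put through the 10x Genomics 3′ workflow by the study, 1 library per tumor model. The number of mice pooled per library and the strandedness settings are not given in the sources used here, and overlapping genes are named beside the result. The authors deposited filtered UMI counts per gene and barcode, unnormalized, made with Cell Ranger 3.0 per the submitters' processing notes (3.0.2 in the matrix headers) against mm10. The labels name a v2 kit, and the study's methods name v2 in one section and v3 in another. The libraries held 10236 barcodes with 44441942 UMIs (KPC) and 12464 barcodes with 55547926 UMIs (PyMT).

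A barcode was kept if 500 or more genes were detected in it and mitochondrial UMIs were below 10%, removing 645 and 720. Counts of the 36 features that share a symbol with another were added. No doublet caller was run, and 708 KPC cells (7.38%) and 1202 PyMT cells (10.2%) met more than 1 gate. The methods' own cell assignment was not used here, so the classes are rebuilt from gates. UMIs were summed per class and expressed as CPM, compared within a gene only, since 3′ counts carry gene-specific capture. Levels have exact Poisson, shares exact Clopper-Pearson and ratios exact conditional binomial 95% intervals, all for counting error only, since cells are not replicates. A ratio against 0 used a floor of 3 UMIs. A gene was testable with 20 UMIs over both sides in each library and counted past 2-fold (log2 of 1) in both libraries, or in all 4 blood endothelial classes between libraries. Cells were thinned to 2000 UMIs (seed 7), shallower cells left out.

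The 10 genes, all gene lists and the thresholds were chosen with earlier results of these data known. All 10 are named, with the 3 genes of highest profile correlation each (200 or more UMIs, pseudocount 1), of which 1 is not reported here. Splits by bins, cycling, Foxc2, Prox1 and Pecam1 with Cdh5 were chosen after levels were seen. Positions are from GENCODE M21 (GRCm38) and promoters from RefSeq (GRCm38.p6). The code was tested on simulated data. Alternatives were a stricter filter (1000 genes, 5% mitochondrial UMIs), gates times 2, another gate order, cells meeting over 1 gate left out, gates at 2000 UMIs, cells scaled to 10000, CPM without mitochondrial and ribosomal genes, 50 UMIs or no minimum, and 1.5-fold. Software was Python 3.11.15 with numpy 2.4.6, scipy 1.17.1, pandas 2.3.3 and matplotlib 3.10.9.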

Additional observations from a re-analysis of the deposited data

Results flagged for a closer look

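Gata2 had opposite directions in the 2 tumor models. The log2 ratio of venule over capillary cells was −0.69 in KPC and 0.51 in PyMT. With 1 library per model the difference between them was not tested. The KPC value lay between −1.13, when single cells were scaled to the same total before averaging, and −0.05, when gates and levels were set at 2000 UMIs, and the PyMT value lay between 0.45 and 0.76.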

How the results depend on the processing

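No paired analysis was possible because each tumor model has 1 library and the labels carry no replicate numbers. Counts of factors past 2-fold were recomputed under 10 or more alternatives. Venule over capillary went from 3 factors to 1 (Nr2f2) with gates and levels at 2000 UMIs and with a minimum of 50 UMIs. Artery over capillary went from 1 to 2 with gate thresholds times 2, with cells meeting over 1 gate left out and with the capillary, tip, artery, venule order, each adding Nr2f2 as lower, and to 3 with no minimum count and at 1.5-fold. Tip over capillary went from 1 to 0 with cells holding a Mmrn1, Reln or Lyve1 UMI left out, an alternative added after the data were seen, and there the Prox1 log2 ratio in KPC was −0.035 in place of 2.24. Pericyte over blood endothelial went from 2 to 1 with 50 UMIs and without cells holding Pecam1 or Cdh5 UMIs (also added later), and to 4 at 1.5-fold. Of the 30 genes named for similar profiles, 11 were named again by Spearman's rho and 1 with endothelial classes alone. Venule over artery, lymphatic over blood endothelial and PyMT over KPC stayed within 1.5 times their counts, with Meox2 the 1 factor of the last under each alternative. Members did change. In venule over artery, Sox18 was lost with the stricter filter, with cells meeting over 1 gate left out, with the other gate order and without mitochondrial and ribosomal genes, and Meox2 was added as higher in the middle pair of these and at 1.5-fold. In lymphatic over blood endothelial, Nr2f1 was lost at 2000 UMIs, where Meox2 was added as lower, and with 50 UMIs, and Foxc1 was added at 1.5-fold. In pericyte over blood endothelial, Sox18, as lower, took the place of Nr2f1 with gates times 2 and at 2000 UMIs, and Foxc1 was added with cells meeting over 1 gate left out. Of single ratios, 1302 moved by less than their counting interval, 137 by more, and 1 that had been counted past 2-fold changed sign. Sign changes of ratios not past 2-fold were not counted apart. Of the levels 960 stayed and 300 moved, and of shared detection 19 stayed and 49 moved.

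Depth limits Prox1, Foxc1, Foxc2 and Nr2f1 in blood endothelial classes, where each had under 10 UMIs in arteries of both libraries. Nr2f2 met the same limit in arteries (7 UMIs in KPC, 4 UMIs in PyMT), and its venule over artery ratios rest on these counts.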
